A study of Mus musculus with 6 samples.

Results

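Cytosolic ribosomal protein genes, which code for proteins of the ribosome outside mitochondria, are described here as a set chosen by symbol. They were the table rows with a mouse symbol of the Rpl or Rps series, together with Rplp0, Rplp1, Rplp2 and Rpsa, that had a mean of at least 1 TPM over the 6 libraries. TPM is a length-corrected transcript level in which every library sums to an equal total. Of 24493 rows, 86 had such a symbol and 82 met the level, 50 for the large and 32 for the small subunit. The 4 rows left out were Rps4l (mean 0.797 TPM), Rpl32l (0.224), Rpl3l (0.134) and Rpl10l (0.0549), and the lowest rows kept were Rpl39l (1.90 TPM) and Rpl7l1 (69.4). Fau and Rack1, which code for further ribosomal proteins, do not have such symbols and are given separately.

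RNA was sequenced from mouse pancreatic tumor cells of clone 6419c5, sorted out of tumors that had been implanted under the skin of C57BL/6 mice. The 2 GAFCP libraries came from tumors that received gemcitabine and abraxane together with an agonist of CD40 and with blockade of CTLA-4 and of PD-1, and the 4 control libraries came from tumors labelled control. Both groups therefore share 1 tumor cell clone and 1 mouse strain, and neither the sort marker nor dose and duration is given in the sources used here. Nothing in the labels says that libraries of 1 group are from different animals, so p-values speak only of how far these libraries scatter, and that scatter may be technical. Sequencing depth is unknown, since TPM keeps none.

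The ribosome translates mRNA with a small subunit that decodes and a large subunit that joins amino acids. Its proteins are made in matched amounts, and their mRNAs are among the most abundant in dividing cells. Most of these mRNAs begin with a terminal oligopyrimidine (TOP) motif, a run of C and T through which the growth-controlling kinase mTOR and the RNA-binding protein Larp1 act on their translation and stability. Mammalian genomes also carry many intronless copies of ribosomal protein mRNAs, called retrocopies or processed pseudogenes, and some of these have a row of their own in expression tables.

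The TOP motif is a property that the choice of genes did not use, and it could be looked for at the annotated starts. RefSeq promoter sequences (GRCm38.p6) matched 62 of the 82 genes, with 73 windows among 32851 in all. A run of at least 8 C or T letters lay within 3 bases of the annotated start in 30.1% of the ribosomal protein windows, against 7.9% of all windows. Runs of at least 5 were found in 46.6% of them, against 26.1%. The windows below hold 10 bases before the start and 20 from it on, 5′ to 3′ on the gene's own strand, and capitals mark the run of C and T. The first 4 show a run of at least 8 and the last 2 show genes with a run of 3, one with the largest decrease of the 82 genes on the log2(TPM + 1) scale and one called higher. In the GENCODE M21 annotation both genes start later, Rpl37a at 72711290, past its window, and Rpl26 at 68901583. A short run may therefore depend on the annotated start, and whether the run goes with the change was not tested.
Rpl35, chr2:39005112-39005141, minus strand: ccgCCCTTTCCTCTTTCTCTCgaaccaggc
Rplp2, chr7:141447641-141447670, plus strand: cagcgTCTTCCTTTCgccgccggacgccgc
Rps26, chr10:128626487-128626516, minus strand: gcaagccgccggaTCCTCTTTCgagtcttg
Rps27, chr3:90213629-90213658, minus strand: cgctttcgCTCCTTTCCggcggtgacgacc
Rpl37a, chr1:72711250-72711279, plus strand: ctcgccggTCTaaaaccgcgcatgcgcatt
Rpl26, chr11:68901556-68901585, plus strand: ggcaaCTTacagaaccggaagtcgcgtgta
Over the 300 bases of each window, from 250 before to 50 after the start and on both strands, CCGGAA was present in 49.3% of the ribosomal protein windows, against 14.9% of all. AAGATGGC was found in 10.96% against 2.75%, GGGCGG in 61.6% against 35.7%, CACGTG in 10.96% against 7.15%, and TATAAA in 9.59% against 13.6%. These are matches of letters and say nothing of what binds there.

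Taken as 1 pool, ribosomal protein mRNA was a slightly smaller part of all TPM in the GAFCP libraries, which also held more RNA of macrophage and other leukocyte marker genes than the control libraries (values at the end). Together the 82 genes held 164031 and 164575 TPM in the GAFCP libraries, against 172243, 184515, 187792 and 183274 TPM in control libraries 1 to 4. Both GAFCP libraries lay below every control library, and control library 1 was the lowest control. As a share of all TPM this was 16.4% ± 0.0384 in GAFCP libraries (SD, n = 2) and 18.2% ± 0.675 in control libraries (SD, n = 4), a difference of -9.70% or -0.15 on the log2 scale. With median-of-ratios scaling, which sets the typical gene rather than the total equal between libraries, the log2 difference was -0.08. The large subunit genes differed by -9.38% and the small subunit genes by -10.2%. The ratio of large to small subunit TPM was 1.46 and 1.48 in GAFCP libraries, against 1.48, 1.45, 1.45 and 1.46 in control libraries, so the groups overlapped in this ratio.

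**Figure D1:**
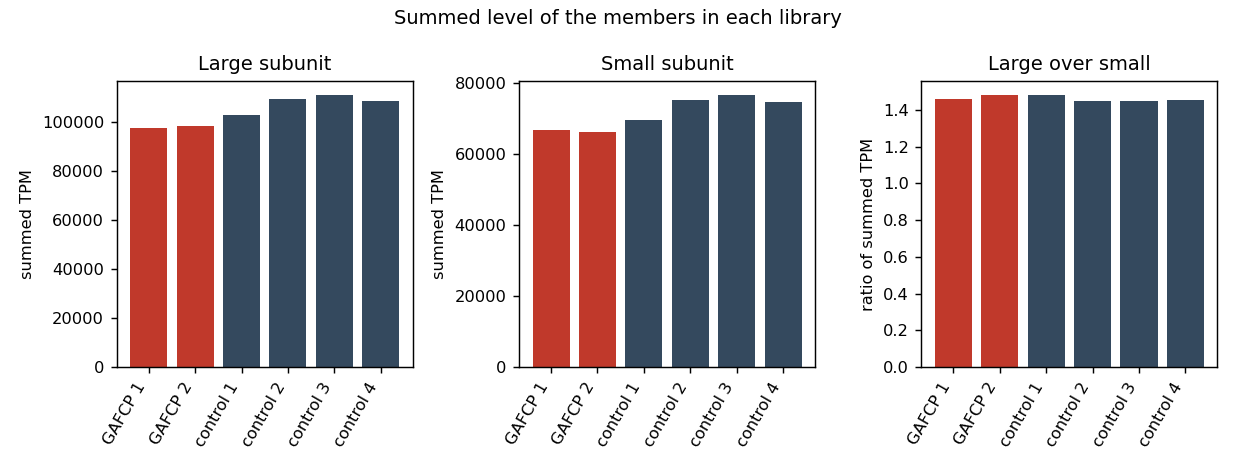
Summed TPM of the 50 large subunit genes (left) and the 32 small subunit genes (middle), and the ratio of the first sum to the second (right), as 1 bar per library. Both sums are lower in the 2 GAFCP libraries (red) than in each of the 4 control libraries (dark blue), while the ratios lie between 1.45 and 1.48 in all 6 libraries.

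Gene by gene, levels were compared with limma on log2(TPM + 1), with a Benjamini-Hochberg adjustment over the whole set of 13720 tested genes and calls at an adjusted p under 0.05. Of the 82 genes, 52 were lower with GAFCP, 4 were higher and 26 were not called. Over all genes tested, 28.5% were called lower and 19.0% higher, 47.5% in all. By subunit, 31 of 50 large subunit genes and 21 of 32 small subunit genes were lower, and all 4 called higher (Rpl26, Rpl30, Rpl34 and Rpl27) belonged to the large subunit. Only Rpl27 stayed called higher once the retrocopy rows described below were added. GAFCP libraries lay below every control library for 60 of the 82 genes and above every control library for 7, where 36.9% and 24.7% of all genes tested did so. The median log2 change was -0.15 for the 82 genes, with quartiles of -0.23 and -0.08, against -0.07 for all genes tested. It was -0.16 for the large and -0.15 for the small subunit.

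These genes are far more abundant than most, and in the fit of all genes 38.2% of the 1317 genes averaging 100 TPM or more were lower and 26.9% higher. When those 1317 genes were tested by themselves, 41.5% were lower and 28.6% higher. Of the 79 ribosomal protein genes among them, 51 were lower and 5 higher. The call count also moved with the scaling and with single libraries. With median-of-ratios scaling 21 of the 82 genes were lower and 4 higher, with a median of -0.09, beside -0.01 for all genes. Over all genes, 3424 were then called lower and 3460 higher. With TPM as deposited these counts were 3909 (28.5%) and 2606 (19.0%) of 13720. The share of ribosomal protein genes called lower was thus close to that of all genes with median-of-ratios scaling. In both scalings most of the ribosomal protein genes lay below the all-gene median, 63 of 82 and 64 of 82. Without GAFCP library 1 the median was -0.15 for the 82 genes and -0.07 for all genes. Without GAFCP library 2 these medians were -0.14 and -0.08. Set against control libraries 1 and 2 alone, 33 of the 82 and 4268 of all genes were lower, with medians of -0.14 and -0.10. With control libraries 3 and 4 alone the medians were -0.16 and -0.03, so the distance from all genes depended on the controls used. Without control library 1, the lowest control for 74 of the 82 genes, 62 of the 82 and 3497 of all genes were lower. Across 22 fits that differed in pseudocount, filter, scaling, variance model, library weights, replicate block, control libraries, added copies or 1 library left out, 21 genes were lower in every one and none was higher in every one. A threshold of 0.01 and the limit of 100 TPM were not among these fits. The 21 are the genes called lower with median-of-ratios scaling, where 3424 of all genes were lower. No matching count over all genes was made for the 22 fits.

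**Figure D2:**
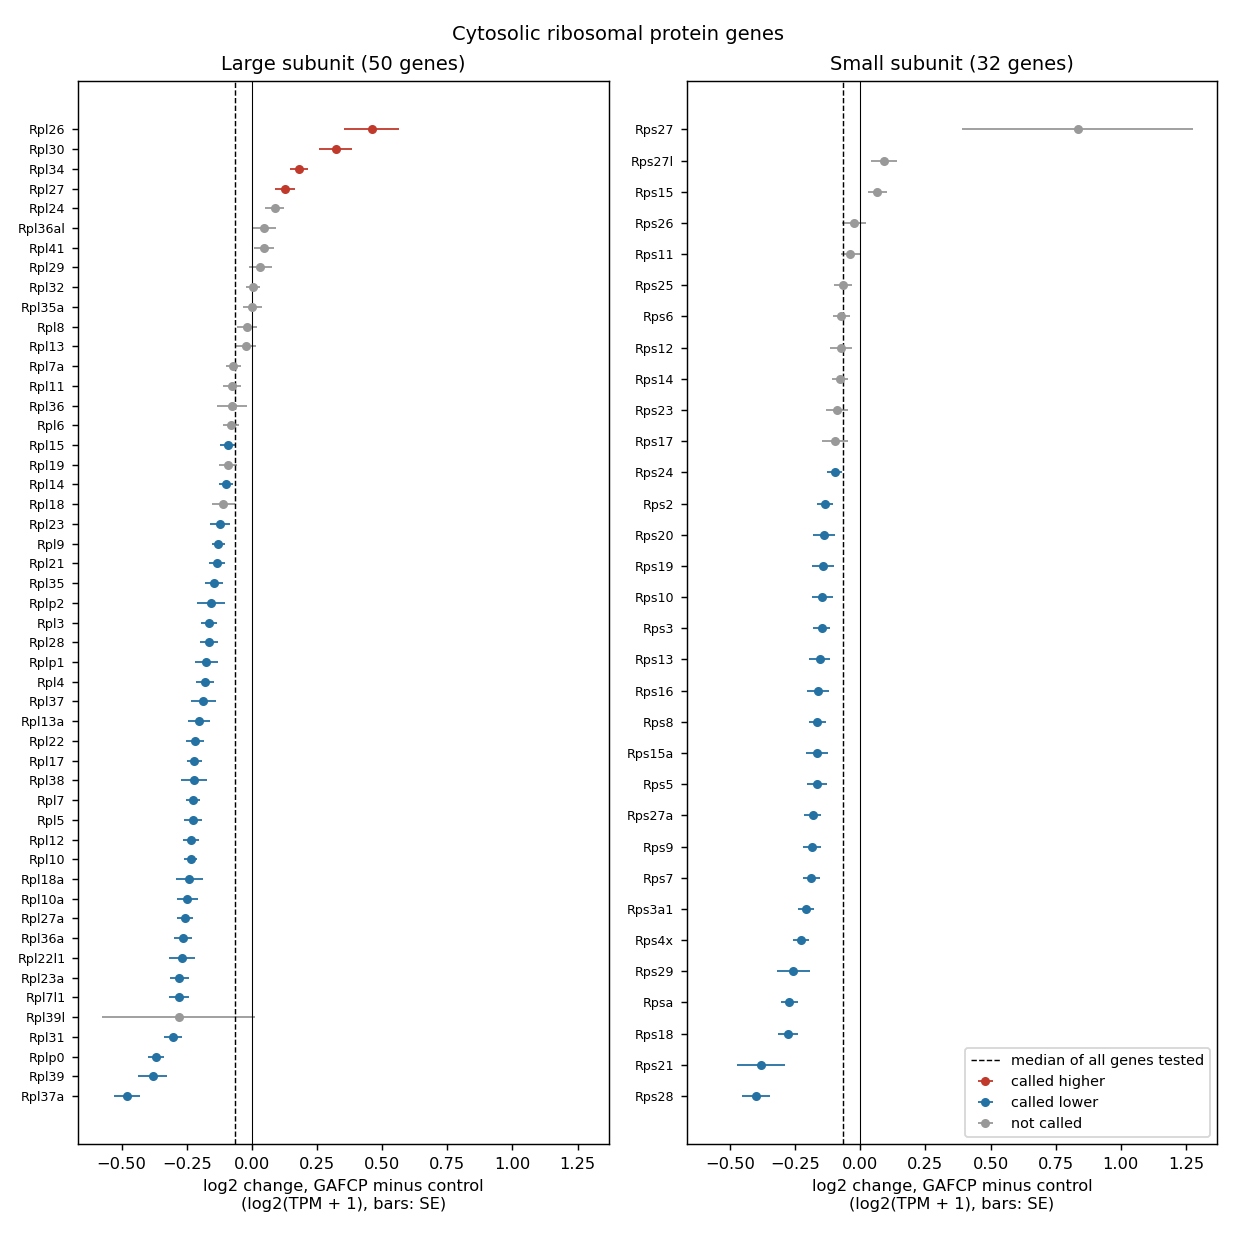
Log2 change of each gene, GAFCP minus control, on the log2(TPM + 1) scale, for large (left) and small (right) subunit genes sorted by their change, with bars of 1 standard error. All points but those of Rps27, Rpl26, Rpl30 and Rpl34 lie between -0.48 and 0.13. Rps27 stands far to the right at 0.83 with the widest bar, and the dashed line marks the all-gene median of -0.07.

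The ribosome's stalk, which recruits the elongation factors, is built by Rplp0, Rplp1 and Rplp2 on a base that holds Rpl12. All 4 genes were lower, beside 52 of all 82 and 28.5% of all genes tested, with a median log2 change of -0.20. Rplp0, the anchor of the stalk (chr5:115559467-115563727, GRCm38), had 2619 and 2669 TPM in GAFCP libraries, against 3297, 3502, 3446 and 3411 TPM in control libraries. The groups were well apart, and the log2 change was -0.37 ± 0.03 (SE; limma adjusted p = 5.0e-05). Rplp1, the most abundant of the 82 genes, had 7645 and 7907 TPM in GAFCP libraries, against 8235, 8719, 9054 and 9141 TPM in control libraries. It fell by 0.18 on the log2 scale (limma adjusted p = 0.0138). Rpl12 fell by 0.23 and Rplp2 by 0.16. The calls of Rplp1 and Rplp2 were lost with median-of-ratios scaling (log2 changes of -0.11 and -0.09, limma adjusted p = 0.264 and 0.382), with quantile normalization and without GAFCP library 1, while Rplp0 and Rpl12 were lower in every fit compared.

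Genes of large subunit proteins in and around the tunnel, through which the new chain leaves, were mostly lower. Of 8 listed genes, 6 fell (Rpl39, Rpl31, Rpl23a, Rpl17, Rpl4 and Rpl35), Rpl26 was called higher and Rpl19 was not called, with a log2 change of -0.09. Among all 82 ribosomal protein genes 52 were lower, beside 28.5% of all genes tested, so this list was near the whole set. Rpl35 fell by 0.15, and its call was lost with median-of-ratios scaling (-0.08, limma adjusted p = 0.269) and without either GAFCP library. Rpl39, a very short protein inside the tunnel, had 1911 and 1974 TPM in GAFCP libraries, against 2355, 2553, 2744 and 2477 TPM in control libraries. No GAFCP value reached the lowest control, and the log2 change was -0.38 ± 0.06 (SE; limma adjusted p = 9.9e-04). Rpl31, beside the exit, fell by 0.30 with 681 and 683 TPM in GAFCP libraries, against 817, 848, 876 and 825 TPM in control libraries. Next to the transfer RNA sites, Rpl10 and Rpl10a fell by 0.24 and 0.25 and Rpl3 by 0.17, the last not called with median-of-ratios scaling (limma adjusted p = 0.0977). Rpl8 was not called, at -0.02, and its sign turned to 0.05 with median-of-ratios scaling. Of the pair that carries the 5S ribosomal RNA and binds the p53 inhibitor Mdm2 when ribosome assembly fails, Rpl5 fell by 0.23, and Rpl11 was not called at -0.08.

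On the log2(TPM + 1) scale Rpl37a had the largest decrease of the 82 genes, although the mean of the low gene Rpl39l, which was not called, differed by more in percent (-31.4%, against -28.4% for Rpl37a). This zinc-binding large subunit protein (chr1:72711290-72713813, GRCm38) had 1342 and 1328 TPM in GAFCP libraries, against 1735, 1869, 1978 and 1876 TPM in control libraries. The log2 change was -0.48 ± 0.05 (SE; limma adjusted p = 1.3e-04), and the gene was among the 21 lower in every fit.

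In the small subunit, the largest decreases were those of Rps28 and Rps21, both small proteins of that subunit. Rps28 had 3971 and 3767 TPM in GAFCP libraries, against 4742, 5068, 5456 and 5179 TPM in control libraries, and changed by -0.40 ± 0.05 on the log2 scale (SE; limma adjusted p = 5.9e-04). Rps21 had 3836 and 4094 TPM in GAFCP libraries, against 4467, 5026, 5669 and 5572 TPM in control libraries, and changed by -0.38 ± 0.09 (SE; limma adjusted p = 0.0105), a call lost with median-of-ratios scaling (limma adjusted p = 0.0663) and without GAFCP library 1 (limma adjusted p = 0.0782). In both genes the GAFCP values lay below all controls, with control library 1 the nearest. Among 7 proteins of the decoding centre and the mRNA path, Rpsa, Rps2 and Rps3 were lower by 0.27, 0.14 and 0.15, although Rps2 turned to 0.05 with quantile normalization, and Rps2 and Rps3 were not called with median-of-ratios scaling (limma adjusted p = 0.302 and 0.183). Rps14, Rps23, Rps26 and Rps15 were not called, with log2 changes of -0.08, -0.09, -0.02 and 0.07. Thus 3 of these 7 were lower, beside 52 of all 82 and 28.5% of all genes tested. Rps26 had 4870 and 5078 TPM in GAFCP libraries, against 4752, 4987, 5272 and 5247 TPM in control libraries, so its groups overlapped.

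Other abundant genes were mixed. Rpl41, which codes for the shortest ribosomal protein, had 7712 and 7852 TPM in GAFCP libraries, against 7160, 7561, 7895 and 7558 TPM in control libraries, and was not called. Rps12 had 4929 and 4898 TPM in GAFCP libraries, against 4839, 5277, 5293 and 5317 TPM in control libraries, and was not called either. Rpl38 fell by 0.22, with 5747 and 5779 TPM in GAFCP libraries, against 6189, 6937, 7060 and 6747 TPM in control libraries, but was not called with median-of-ratios scaling (limma adjusted p = 0.139) and had a change of 0.06 with quantile normalization. Of 11 genes mutated in Diamond-Blackfan anemia, an inherited failure of red cell production, 6 were lower and 1, Rpl26, was higher, beside 28.5% and 19.0% of all genes, and the Rpl26 call is lost when its copy row, described next, is added.

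Of the 82 genes, Rps27 had the largest positive change, and with Rpl26, Rpl30 and Rpl34 it shared a near-identical second row in the table. This comparison was made after the values were seen. Rows were matched to a ribosomal protein gene when at least 30% of the 31-base words of their GENCODE M21 transcripts occurred in that gene's transcripts. Leaving out microRNA and small nucleolar RNA genes (Snora7a, which lies within Rpl32 transcript sequence at a mean of 41.1 TPM, is one), 9 such rows with a mean of at least 1 TPM were found, and 4 of them were more abundant than the gene itself. Rps27rt, a copy of Rps27 annotated as protein coding (chr9:114982366-114982739, minus strand), was identical over all 255 coding bases. The other 3 are annotated as processed pseudogenes. Rpl34-ps1 (chr6:71124610-71124963, plus strand) differed from the Rpl34 coding sequence at 2 of 354 bases, Gm12191 (chr11:49678710-49679057, minus strand) from Rpl30 at 1 of 348, and Gm15772 (chr5:3236431-3236868, plus strand) from Rpl26 at 2 of 438. The shared Rps27 coding sequence is given whole, because no coding base tells the 2 rows apart.
Rps27 (chr3:90212522-90213651, minus strand, spliced) and Rps27rt: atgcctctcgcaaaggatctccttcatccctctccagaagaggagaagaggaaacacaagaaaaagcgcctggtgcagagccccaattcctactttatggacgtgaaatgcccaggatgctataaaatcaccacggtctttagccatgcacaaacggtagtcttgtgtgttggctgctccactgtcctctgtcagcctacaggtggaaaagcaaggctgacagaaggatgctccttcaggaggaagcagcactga
For the Rpl34 and Rpl26 pairs, 90 spliced coding bases around the first differing base are shown, with that base in capitals, as in GENCODE M21 on GRCm38.
Rpl34: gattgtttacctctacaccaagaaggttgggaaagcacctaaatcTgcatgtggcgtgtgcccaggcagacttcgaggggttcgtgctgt
Rpl34-ps1: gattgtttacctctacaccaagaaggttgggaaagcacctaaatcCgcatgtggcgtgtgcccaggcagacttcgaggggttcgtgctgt
Rpl26: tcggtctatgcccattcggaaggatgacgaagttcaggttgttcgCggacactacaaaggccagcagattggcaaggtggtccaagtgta
Gm15772: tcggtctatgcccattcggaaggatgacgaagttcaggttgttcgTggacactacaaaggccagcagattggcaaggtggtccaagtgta

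Taken alone, Rps27 had 1294 and 1061 TPM in GAFCP libraries, against 369, 1079, 1049 and 446 TPM in control libraries. Control libraries 2 and 3 lay at the GAFCP level and control libraries 1 and 4 far under it, and the log2 change of 0.83 ± 0.44 (SE) was not called (limma adjusted p = 0.161). It was called higher with library weights (limma adjusted p = 0.0372) and among genes of at least 100 TPM (limma adjusted p = 0.024), with adjusted p of up to 0.422 under the other settings that kept its row apart. Rps27rt had 5041 and 5796 TPM in GAFCP libraries, against 7971, 7227, 7704 and 8330 TPM in control libraries, and was lower by 0.53 on the log2 scale (limma adjusted p = 5.0e-04). Added together, the Rps27 and Rps27rt rows gave 6335 and 6857 TPM in GAFCP libraries, against 8340, 8306, 8753 and 8776 TPM in control libraries. The groups no longer overlapped, the controls lay close together, and the sum was lower by 0.37 ± 0.04 (SE; limma adjusted p = 2.0e-04). Of that sum the Rps27 row held 20.4% and 15.5% in GAFCP libraries, against 4.42%, 13.0%, 12.0% and 5.08% in control libraries.

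The same sum changed the calls of Rpl26, Rpl30 and Rpl34. Rpl30 alone had 196 and 195 TPM in GAFCP libraries, against 142, 154, 165 and 165 TPM in control libraries, and was called higher by 0.32 ± 0.06 (SE; limma adjusted p = 0.00387). With Gm12191 the values were 2893 and 2902 TPM in GAFCP libraries, against 3321, 3492, 3532 and 3390 TPM in control libraries, and the sum was lower by 0.24 (limma adjusted p = 5.0e-04). Both comparisons had groups that did not overlap, in opposite directions.

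Rpl34 alone had 271 and 277 TPM in GAFCP libraries, against 248, 234, 243 and 243 TPM in control libraries, and was called higher by 0.18 (limma adjusted p = 0.00394), a call lost with quantile normalization (0.09, limma adjusted p = 0.0901) and, at a similar change of 0.16, without GAFCP library 2. With Rpl34-ps1 it had 3981 and 4282 TPM in GAFCP libraries, against 4609, 4716, 4843 and 4935 TPM in control libraries, lower by 0.21 (limma adjusted p = 0.0036). Rpl26 alone had 254 and 254 TPM in GAFCP libraries, against 203, 153, 201 and 185 TPM in control libraries, and was called higher by 0.46 (limma adjusted p = 0.00867). With Gm15772 it had 2687 and 2660 TPM in GAFCP libraries, against 2737, 2792, 2841 and 2753 TPM in control libraries. That sum had a log2 change of -0.06 and was not called (limma adjusted p = 0.119), and its groups did not overlap.

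With these 9 copies added to their gene, 55 of the 82 genes were lower, 1 was higher and 26 were not called, and the median log2 change was -0.16. Over all genes, 3909 were lower and 2605 higher in that fit, with a median of -0.07. Ribosomal protein rows then held 17.9% ± 0.111 of all TPM in GAFCP libraries (SD, n = 2) and 20.02% ± 0.685 in control libraries (SD, n = 4). The ratio of large to small subunit TPM was 1.48 and 1.49 in GAFCP libraries, against 1.46, 1.45, 1.44 and 1.44 in control libraries, and so no longer overlapped. Among added small subunit copies only Rps27rt was abundant, at 5041 and 5796 TPM in GAFCP libraries, against 7227 to 8330 in controls. The part of Rps27rt in this ratio was not tested. How reads were divided between a gene and its copy was not tested, since the table holds no reads.

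**Figure D3:**
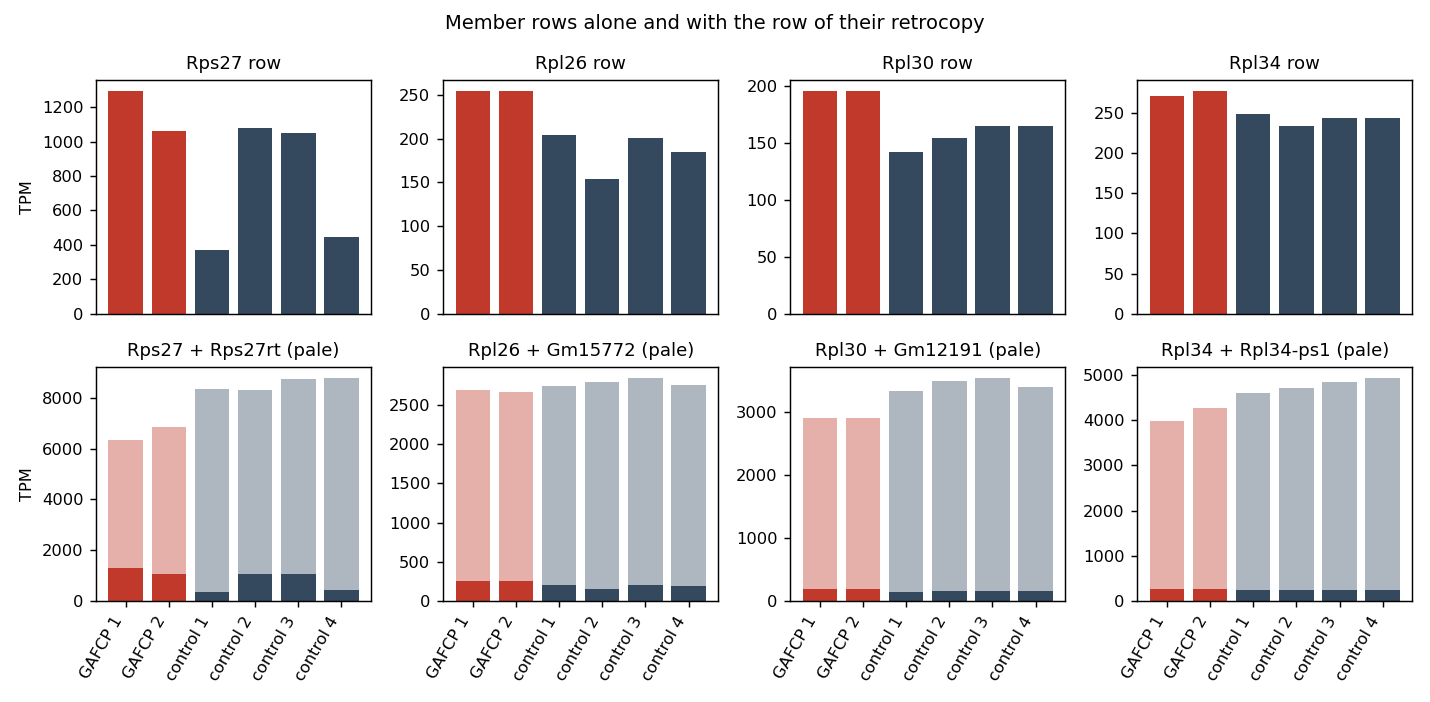
TPM of 4 ribosomal protein genes by library, as their own row (top) and stacked with the row of their copy in a pale shade (bottom), with GAFCP libraries in red and control libraries in dark blue. The copy rows hold most of each stack, and the stacks are lower in both GAFCP libraries than in every control library although the top rows of Rpl26, Rpl30 and Rpl34 are higher.

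The 1 gene that stayed called higher with copies added was Rpl27, a large subunit protein with no such copy row. It had 1392 and 1410 TPM in GAFCP libraries, against 1217, 1299, 1286 and 1327 TPM in control libraries. Both GAFCP values lay above the controls, and the log2 change was 0.13 ± 0.04 (SE; limma adjusted p = 0.0249). At similar changes of 0.14 and 0.12 its adjusted p by limma was 0.103 without GAFCP library 1 and 0.146 without GAFCP library 2. With all libraries kept it was not called without the variance trend (limma adjusted p = 0.097) or without a filter (limma adjusted p = 0.0537).

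Some ribosomal proteins have a second gene, or paralog, that codes for a similar protein. Pairs were compared by the ratio of paralog to parent TPM, with a two-sided exact permutation test over the 15 arrangements of the 6 libraries, where the smallest possible p is 0.0667. Rpl36al stood at 48.5% and 47.6% of Rpl36a in GAFCP libraries, against 37.8%, 39.2%, 38.6% and 39.1% in control libraries. The groups did not overlap, and the log2 ratio was 0.31 higher (exact p = 0.0667, adjusted p = 0.333 over the 5 pairs). Rpl36a fell by 0.27, while Rpl36al had 596 and 598 TPM in GAFCP libraries, against 542, 598, 587 and 584 TPM in control libraries, and was not called. The Rpl7l1 to Rpl7 ratio differed by -0.05 (exact p = 0.133), with both genes lower. For Rpl22l1 to Rpl22, again with both genes lower, the difference was -0.05 (exact p = 0.533). The Rpl22l1 call was lost with median-of-ratios scaling (-0.21, limma adjusted p = 0.0627). Rpl39l, a paralog best known from the testis, was near the lower limit of the list, with 1.47 and 1.44 TPM in GAFCP libraries, against 3.21, 2.85, 1.08 and 1.34 TPM in control libraries. Its groups overlapped, and its ratio to Rpl39 differed by 0.10 (exact p = 0.867). The log2 ratio of Rps27l to Rps27 differed by -0.74 (exact p = 0.2) with the Rps27 row alone and by 0.47 (exact p = 0.0667) once Rps27rt was added to Rps27.

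Changes varied more among short genes. Coding lengths ran from 78 bases (Rpl41) to 1260. Among the 21 shortest of the 82 genes the standard deviation of the log2 change was 0.29, or 0.21 without Rps27, and among the 20 longest it was 0.09. Those 21 also hold Rpl30 and Rpl34, whose signs turn with copies added, and the low gene Rpl39l. Their part in this spread was not tested. Across the 82 genes, which share libraries and are not independent replicates, Spearman's rho between coding length and log2 change was -0.06, and it was -0.23 with transcript length. Between coding length and the difference of control libraries 3 and 4 from control libraries 1 and 2 it was -0.56.

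Some ribosomal protein genes stand outside the symbol rule. Rack1, a scaffold on the small subunit, fell by 0.18, and Fau was not called at -0.09.

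Genes around the ribosome were counted for comparison, beside 28.5% lower and 19.0% higher among all genes tested. Over the lists together 21 genes were called higher, and 41 with median-of-ratios scaling. Calls higher over all genes rose from 2606 to 3460 with that scaling. Of 18 elongation factors and other genes with TOP mRNAs, 9 were lower and 2 higher, with a median log2 change of -0.10. Eef1b2, an exchange factor for elongation, fell by 0.42 and the initiation factor subunit Eif3h by 0.28, while Nap1l1 and Btf3 were higher by 0.12 and 0.09. Of 25 other initiation factors, 4 were lower, including Eif1ax (-0.23) and Eif3i (-0.15), and 5 higher, including Eif6 (0.25) and Eif1 (0.14), with a median of 0.04. Of 30 ribosome biogenesis genes, which process ribosomal RNA and assemble subunits, 10 were higher and 1 lower, with a median of 0.10. Nhp2, of the particles that modify ribosomal RNA, was higher by 0.30 and the methyltransferase Nop2 by 0.24, while Nop10 fell by 0.46. Among 14 genes of RNA polymerase I and its cofactors 4 were lower, including Taf1a (-0.44) and Ubtf (-0.26), and only Taf1d was higher (0.29), with a median of -0.09. Of 15 regulators of TOP mRNAs and ribosomal protein genes, 3 were higher and 2 lower. Larp1, which binds TOP mRNAs, was higher by 0.45, with 70.2 and 71.4 TPM in GAFCP libraries, against 53.7, 53.5, 47.9 and 51.9 TPM in control libraries. Eif4ebp1, an mTOR substrate that restrains initiation, was also higher by 0.45. Myc and Tsc2 were lower by 0.17 and 0.18.

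**Figure D4:**
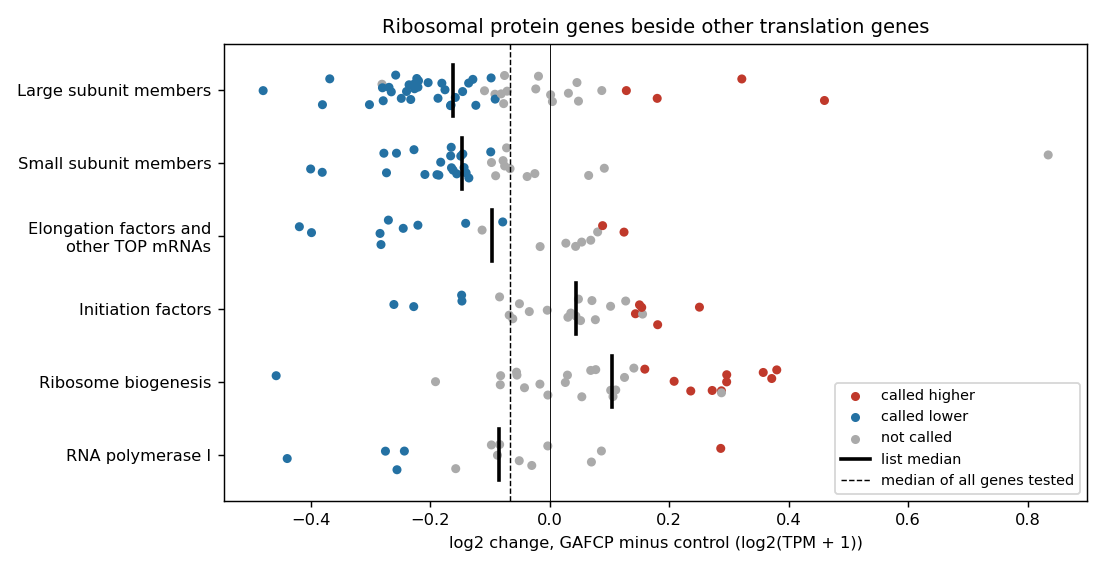
Log2 change of each gene, GAFCP minus control on the log2(TPM + 1) scale, by gene list, with black bars at the list medians and a dashed line at the all-gene median of -0.07. The ribosomal protein lists have medians of -0.16 and -0.15, and the biogenesis list has a median of 0.10.

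Markers of other cells moved with the treatment in these sorted cells. Summed TPM of 10 epithelial markers was 5325 to 5359 in GAFCP libraries, against 7040 to 7431 in control libraries, with 5 of 9 tested lower, 1 higher (Cldn4) and 3 not called. Keratins Krt8, Krt18, Krt19 and Krt7 made up most of it, while Epcam was at 1.39 to 1.68 TPM in GAFCP libraries, against 12.5 to 13.1 in control libraries. That of 12 macrophage markers was 5621 to 5699 in GAFCP libraries, against 1317 to 1418 in control libraries, with 12 of 12 called higher. For 10 pan-leukocyte markers, 10 of 10 were higher, with sums of 347 to 359 in GAFCP libraries, against 123 to 142 in control libraries. T and NK cell markers summed to 36.0 to 40.3 in GAFCP libraries, against 5.52 to 7.93 in control libraries, with 8 of 8 tested higher. Fibroblast markers summed to 359 to 360 in GAFCP libraries, against 221 to 243 in control libraries, with 7 of 10 higher and 1 lower. B and plasma cell markers summed to 6.35 to 6.83 in GAFCP libraries, against 0.965 to 1.66 in control libraries, and endothelial markers to 6.37 to 6.47 in GAFCP libraries, against 5.10 to 6.11 in control libraries. Erythroid markers overlapped, at 85.1 to 94.1 in GAFCP libraries, against 74.4 to 88.5 in control libraries, with Hbb-bs listed at 0 in all libraries. Their part in the ribosomal protein values was not tested, and in bulk samples fewer cells of a type and less RNA per cell cannot be told apart. The RNA precursor Rn45s stood at 5332 to 5676 TPM in GAFCP libraries, against 5833 to 8989 in control libraries. Mir6236 held 9.31% to 9.63% of all TPM in GAFCP libraries, against 7.59% to 11.2% in control libraries. Rescaled without small and ribosomal RNA genes, 60 of the 82 ribosomal protein genes were lower and 5 higher. Calls over all genes rose as well, from 3909 to 4400 lower and from 2606 to 2738 higher.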

How the data were processed

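The authors deposited 1 table of TPM, with 24493 genes and 6 libraries, and the submitters' processing notes name Salmon and mm10. Neither the Salmon version nor the annotation is given in the sources used here. No depth can be read from TPM, so precision rests on replicate spread alone. Titles gave the groups and replicate numbers.

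The test was limma 3.58.1 (R 4.3.3), moderated along the mean-variance trend, on 4 residual degrees of freedom. It used log2(TPM + 1) of the 13720 genes that reached 1 TPM in 2 or more libraries. Calls needed a Benjamini-Hochberg adjusted p under 0.05 over all of them. This scale understates the fold changes of low genes. The test was tried on simulated data.

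The ribosomal protein genes and all gene lists were chosen with earlier results of these data known. Named genes were the 8 highest and 8 lowest by log2 change, the 6 most abundant, Rplp0, Rplp1, Rplp2, Rpsa, the paralogs with their parents, and the role lists. Outside them were Fau, Rack1 and up to 2 called genes with the smallest p in each direction of each translation list. Rps27rt, Rpl34-ps1, Gm12191, Gm15772, Mir6236 and Rn45s were named after their values were seen, and the counts with copies added were also chosen after seeing the data. Positions and transcripts are from GENCODE M21 on GRCm38 (mm10), and promoters are from RefSeq. Some items under these rules are not reported here. Alternatives changed the pseudocount, filter, scaling, variance model, threshold, library weights, replicate block and libraries.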

Additional observations from a re-analysis of the deposited data

Results flagged for a closer look

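Among 46 sets of 4 control values, 1 library stood far from the other 3 in 2, where chance gives about 1 in 20. In Rps12, control library 1 had 4839 TPM, beside 5277, 5293 and 5317 TPM in the other controls, a gap of 0.916 of the whole range. In Rpl8, control library 1 had 2321 TPM, beside 2491, 2509 and 2494 TPM, a gap of 0.905. Neither gene was called, and control library 1 was the lowest control for 74 of the 82 ribosomal protein genes.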

How the results depend on the processing

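Of 1009 values of 44 named ribosomal protein genes under an alternative, 902 kept their direction and their side of the threshold, 56 lost a call, 34 gained one and 17 changed sign. The genes called lower (52) numbered 21 with median-of-ratios scaling, 33 with control libraries 1 and 2 alone, 27 with the replicate block, and 30 to 62 with 1 library left out. Those called higher (4) numbered 7 with library weights, 1 with copies added, and 2 to 5 with 1 library left out. Same-numbered libraries did not deviate together (correlations of -0.00727 and -0.0195), so the numbers were not read as pairs. Where a GAFCP library was left out, the remaining one was assumed to vary like the controls. The log2 difference of the sum (-0.15) was -0.084 with median-of-ratios scaling and -0.17 to -0.13 with 1 library left out, and that of the subunit ratio (0.01) was 0.038 with copies added. In the other translation lists, calls higher (21) numbered 41 with median-of-ratios scaling, 13 with the replicate block, 13 at a threshold of 0.01 and 12 to 23 with 1 library left out. Calls lower (22) numbered 14 at that threshold and 13 to 27 with 1 library left out.

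Signs turned with copies added for Rpl26 (-0.056), Rpl30 (-0.24), Rpl34 (-0.21), Rps27 (-0.37) and the Rps27l to Rps27 ratio (0.47). With median-of-ratios scaling they turned for Rpl8 (0.045) and Rps26 (0.039). With quantile normalization they turned for Rpl36al (-0.014), Rpl38 (0.057), Rps15 (-0.00968), Rps2 (0.051) and Rps26 (0.0197). Control libraries 3 and 4 have no GAFCP library of their number, so the replicate block gave the changes of control libraries 1 and 2. With control libraries 1 and 2 alone, Rpl8 was at 0.0097 and Rps26 at 0.031. With those 2 controls the Rpl22l1 to Rpl22 ratio was 0.016 and the Rpl39l to Rpl39 ratio -0.38, which ranged from -0.11 to 0.30 with 1 library left out. Rpl39l was at 0.15 with control libraries 3 and 4 alone and Rps26 ranged from -0.055 to 0.0052 with 1 library left out, the highest without GAFCP library 1. The causes were not tested. Depth is unknown, so its limit on low genes such as Rpl39l cannot be given.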
